A study of Rattus norvegicus with 6 samples.

Results

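The apoptosome, its caspases and the inhibitors that hold caspases in check were examined in kidneys of diabetic rats with and without Shenqi Jiangtang Granule (SJG), a herbal preparation used against diabetes. The set comprises 9 genes chosen for their place in this pathway, Apaf1, Casp9, Cycs, Casp6, Casp8, Diablo, Xiap, Birc2 and Birc3, and all 9 were measured among the 18166 genes of the array. The SJG group held 3 kidney samples from diabetic rats given SJG, and the diabetic group held 3 from rats of the same model, which received saline in its place. All were Sprague Dawley rats labelled as 17 weeks old, and the paper describes male animals made diabetic with streptozotocin, a toxin of insulin-producing cells, and names a high-fat diet for the model in its opening but not in its methods. RNA came from the kidney cortex, by those methods. The labels name no dose, and the paper's text assigns the arrays to its higher dose, given orally each day until the kidneys were taken. No kidney of a rat without diabetes was analysed here, so a value closer to normal cannot be told from one that is not.

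Apoptosis through mitochondria starts when cytochrome c leaks from the intermembrane space and binds Apaf1, which then assembles into the wheel-shaped apoptosome and activates caspase-9. Death receptors at the cell surface use caspase-8 instead, and both initiator caspases act on executioner caspases that cut up the cell. Inhibitor of apoptosis proteins, the IAPs, bind caspases or tag proteins with ubiquitin, and Diablo released from mitochondria displaces them. In the diabetic kidney, loss of tubule cells and podocytes by apoptosis is a well-known feature of nephropathy.

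Sequences upstream of the transcription start were taken from RefSeq for the apoptosome's scaffold and its trigger, Apaf1 and Cycs, whose log2 fold changes had opposite signs in these arrays. Upstream sequences on GRCr8 were available here for 6 of the 9 genes and not for Casp8, Xiap and Birc3, which are named only. The 250 bases before each start are given 5′ to 3′, for Apaf1 from chr7:27466773-27467022 on the minus strand and for Cycs from chr4:80984768-80985017 on the minus strand. Capitals mark CGCATGCG, the centre of the binding motif of nuclear respiratory factor 1 and its own reverse complement.
Apaf1: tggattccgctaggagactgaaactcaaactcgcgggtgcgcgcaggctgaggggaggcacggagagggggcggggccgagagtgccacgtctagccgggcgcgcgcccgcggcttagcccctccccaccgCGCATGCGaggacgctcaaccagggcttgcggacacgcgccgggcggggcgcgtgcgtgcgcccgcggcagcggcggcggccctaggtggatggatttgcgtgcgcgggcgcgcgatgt
Cycs: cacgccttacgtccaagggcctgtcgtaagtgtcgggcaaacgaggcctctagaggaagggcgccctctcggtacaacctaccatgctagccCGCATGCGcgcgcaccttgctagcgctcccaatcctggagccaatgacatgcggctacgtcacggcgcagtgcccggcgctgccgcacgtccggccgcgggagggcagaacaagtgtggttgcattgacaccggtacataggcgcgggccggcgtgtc
The marked letters begin 119 bases before the start of Apaf1 and 158 bases before that of Cycs, in 2 of the 6 genes matched, and 1.47% of 33469 such windows hold them. The GC box GGGCGG or its reverse complement CCGCCC, which occurs in 30.5% of the windows, was found 2 times in Apaf1, 0 times in Cycs and in 4 of the 6 genes, with 0 matches overlapping the marked letters. The Apaf1 window was 74.0% G and C and the Cycs window 65.6%, where the median window had 51.2%. These letters were searched for after both sequences had been read, and a match is a description of the window only.

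Of the 9 genes, 2 were lower in the SJG-treated kidneys, the apoptosome gene Apaf1 and the inhibitor gene Birc3, and none was higher. Here and below, "lower" and "higher" are used of genes that changed by more than 1.5-fold with a limma p, before adjustment, under 0.05. These are the thresholds of the study. Of all 18166 genes, 565 passed (3.11%), 385 of them lower (2.12%) and 180 higher (0.991%), a split that was 319 lower and 264 higher with each array centred on the median of the named genes, 77 lower and 76 higher with the unmoderated comparison of each gene on its own, and 223 lower and 190 higher without SJG replicate 2. After Benjamini-Hochberg adjustment 0 genes had a limma adjusted p under 0.05 (0%), although 1133 had an unadjusted p under 0.05 and the unmoderated comparison left 2. The 3 SJG arrays lay on one side of the 3 diabetic arrays for 2 of the 9 genes, again Apaf1 and Birc3, and for 10.5% of all genes. The median log2 fold change of the 9 genes was -0.06, against 0.00 over all genes, with 6 of the 9 below 0. Nothing in the labels ties each replicate to an animal of its own, and the p-values therefore rest on sample-to-sample spread that can include technical variation. A kidney sample mixes many cell types, in which fewer cells of a type and less RNA per cell cannot be told apart.

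**Figure D1:**
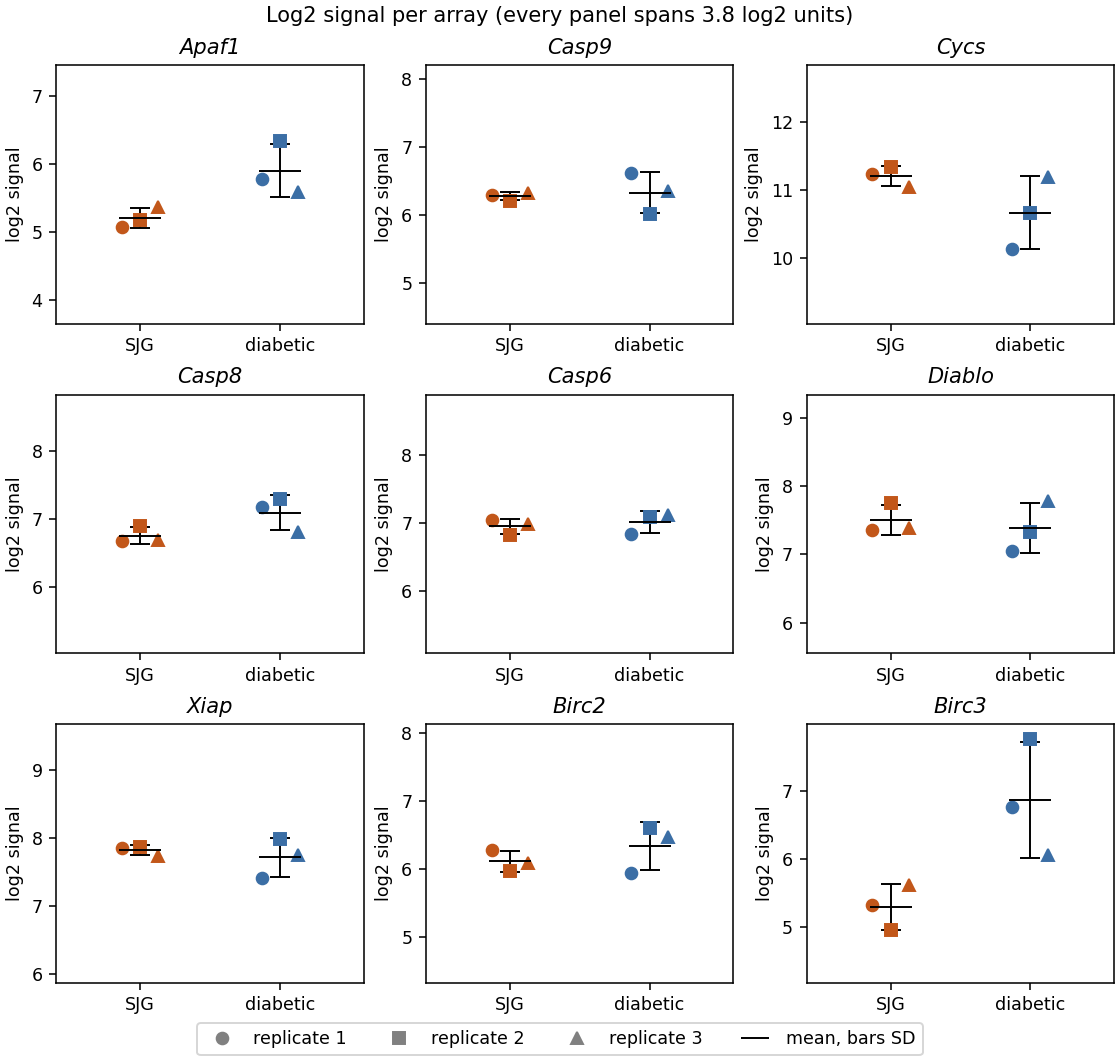
Log2 signal of each of the 9 genes on the 3 SJG and 3 diabetic arrays, with the mean and SD of each group. Only Apaf1 and Birc3 have all SJG arrays below all diabetic arrays, and the diabetic arrays spread more widely than the SJG arrays in every panel.

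Apaf1 encodes the scaffold of the apoptosome, without which cytochrome c cannot activate caspase-9. Its log2 signal was 5.08, 5.18 and 5.37 in SJG replicates 1 to 3, against 5.79, 6.34 and 5.59 in diabetic replicates 1 to 3. The groups did not overlap, diabetic replicate 2 stood highest, and the highest SJG array lay 0.22 below the lowest diabetic array. The mean was 5.21 ± 0.15 with SJG and 5.91 ± 0.39 in the diabetic kidneys (SD, n = 3 each), which puts the SJG signal at 0.617 of the diabetic one. The log2 fold change was -0.70 with a standard error of 0.214 and a 95% interval of -1.17 to -0.23 (limma adjusted p = 0.746). Without diabetic replicate 2 the difference was -0.48, less than 1.5-fold, so that Apaf1 no longer passed.

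Casp9 encodes the initiator caspase that the apoptosome activates. Log2 signals were 6.30, 6.21 and 6.32 in the SJG arrays and 6.61, 6.02 and 6.35 in the diabetic arrays. All 3 SJG values lay between the lowest and highest diabetic values. Casp9 differed by -0.05 on the log2 scale, with a 95% interval of -0.47 to 0.36 that stayed inside a 1.5-fold change in either direction (limma adjusted p = 0.965), and its sign turned under quantile normalization.

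Cycs encodes cytochrome c, the electron carrier of the respiratory chain that triggers the apoptosome once it reaches the cytosol. Its log2 signal was 11.24, 11.34 and 11.04 with SJG, against 10.13, 10.67 and 11.20 in the diabetic kidneys. Diabetic replicates 1 and 2 lay below every SJG array, and diabetic replicate 3 lay among them. The log2 fold change of 0.54 had a standard error of 0.250 and an interval of -0.01 to 1.09, and did not pass (limma adjusted p = 0.772). Without diabetic replicate 3 it was 0.81 and passed, and it also passed, at 0.59, when each array was centred on the median of the named genes. A dimmer transcript cluster assigned to Cycs had log2 signals of 8.58, 8.30 and 9.10 with SJG and 8.03, 8.21 and 8.79 in the diabetic arrays, a log2 fold change of 0.32 (limma adjusted p = 0.880 over all transcript clusters). Rat and mouse genomes carry many processed copies of Cycs, and whether the probes of either cluster also read such copies is not known here. Without array coordinates it is also not known which cluster lies at the Cycs gene whose upstream sequence is given above. The passing values of Cycs, 0.81 and 0.59, are those of the brighter cluster.

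Casp8 encodes the initiator caspase of death receptors. SJG arrays read 6.68, 6.90 and 6.70 on the log2 scale, and diabetic arrays 7.18, 7.30 and 6.81. Only SJG replicate 2 reached above the lowest diabetic array, diabetic replicate 3. Casp8 differed by -0.34 on the log2 scale, with an interval of -0.75 to 0.07 (limma adjusted p = 0.772). It lay between -0.48 and -0.24 under all alternatives and passed under none of the 14.

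Casp6 encodes an executioner caspase that cleaves nuclear lamins. Its log2 signals of 7.04, 6.83 and 6.99 with SJG and 6.83, 7.10 and 7.12 in the diabetic kidneys overlapped throughout. Casp6 differed by -0.06 on the log2 scale, with an interval of -0.44 to 0.31 inside a 1.5-fold change (limma adjusted p = 0.953), and its sign turned under quantile normalization. Its spread within groups, a pooled SD of 0.137, was the smallest of the 9 genes.

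**Figure D2:**
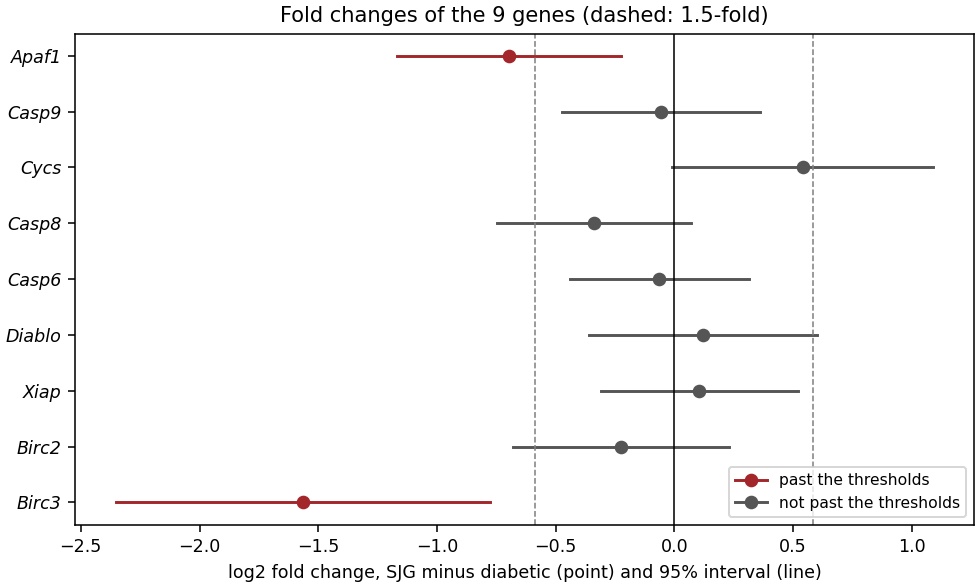
Log2 fold change of each of the 9 genes, SJG minus diabetic, with its 95% interval from limma and dashed lines at a 1.5-fold change. The intervals of Apaf1 and Birc3 lie below 0, and those of Casp9, Casp6 and Xiap lie wholly between the dashed lines.

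Among the inhibitors, Birc3 encodes cIAP2, a ubiquitin ligase at the tumour necrosis factor receptors and a gene that NF-kB induces. Its log2 signal was 5.33, 4.96 and 5.63 in SJG replicates 1 to 3, against 6.78, 7.77 and 6.06 in diabetic replicates 1 to 3. The groups did not overlap, diabetic replicate 2 again stood highest, and diabetic replicate 3 lay 0.44 above the highest SJG array. The mean was 5.30 ± 0.34 with SJG and 6.87 ± 0.86 in the diabetic kidneys (SD, n = 3 each), a signal 0.338 times the diabetic one. The log2 fold change was -1.56 with a standard error of 0.357 and a 95% interval of -2.35 to -0.78 (limma adjusted p = 0.635). Birc3 also varied most within the groups, with a pooled SD of 0.649, above that of 98.5% of all genes. It passed under all 14 alternatives, with log2 fold changes between -1.97 without diabetic replicate 3 and -1.12 without diabetic replicate 2. Without diabetic replicate 3 it had a limma adjusted p of 0.0108, one of 166 genes under 0.05 in that fit.

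Birc2 encodes cIAP1, the closest relative of cIAP2, and lies directly beside Birc3 on chromosome 8 of the GRCr8 annotation. Birc2 had log2 signals of 6.28, 5.97 and 6.10 with SJG and 5.95, 6.61 and 6.47 in the diabetic arrays. Diabetic replicate 1 was the lowest of the 6 arrays and diabetic replicate 2 the highest, so that the SJG values lay inside the diabetic range. The log2 fold change was -0.22 with an interval of -0.68 to 0.23 (limma adjusted p = 0.843).

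Xiap encodes the IAP that binds caspase-9 and executioner caspases directly. Xiap had log2 signals of 7.86, 7.87 and 7.74 with SJG and 7.41, 7.99 and 7.75 in the diabetic kidneys. The SJG values again lay inside the diabetic range, and the interval of the log2 fold change of 0.11, from -0.31 to 0.52, stayed inside a 1.5-fold change (limma adjusted p = 0.919). Diablo encodes the mitochondrial protein that relieves caspases from Xiap. It had log2 signals of 7.36, 7.76 and 7.39 with SJG and 7.05, 7.33 and 7.79 in the diabetic arrays, and a log2 fold change of 0.12 (interval -0.36 to 0.60, limma adjusted p = 0.922). Of the 7 genes that did not pass, 3 had intervals wholly inside a 1.5-fold change, Casp9, Casp6 and Xiap, while those of Cycs, Casp8, Diablo and Birc2 also covered larger changes.

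**Figure D3:**
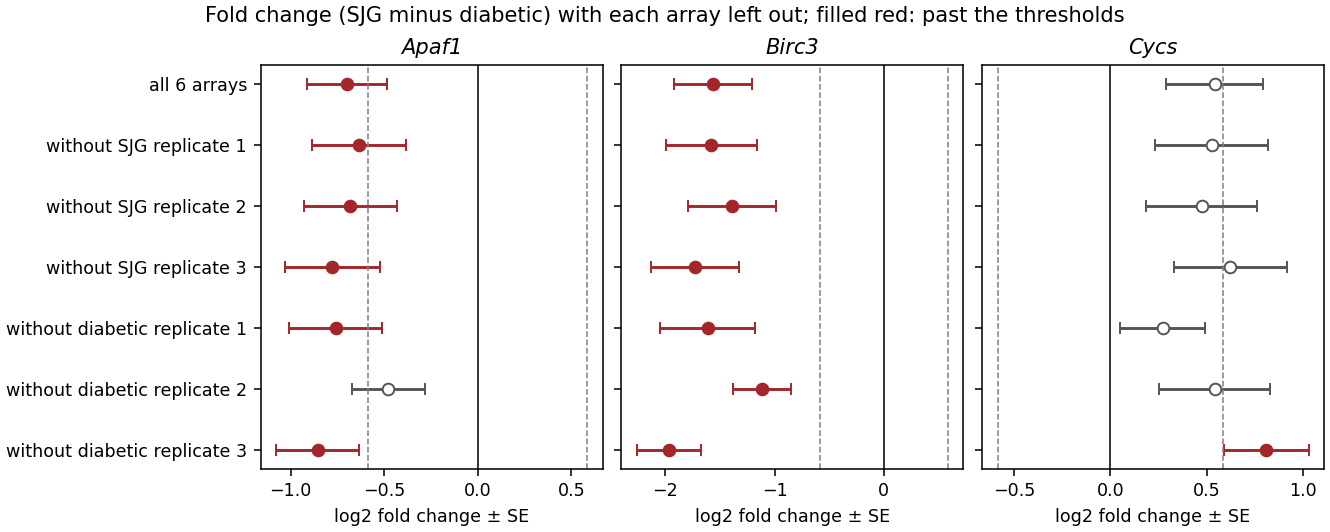
Log2 fold change with its standard error for Apaf1, Birc3 and Cycs with all 6 arrays and with each array left out in turn. Apaf1 passes in all fits but the one without diabetic replicate 2 (-0.48), Birc3 passes in each, and Cycs passes only without diabetic replicate 3 (0.81).

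The difference between members on the same array, which a scaling of whole arrays leaves unmoved, was compared for 4 pairs. Birc3 minus Birc2 was -0.95, -1.02 and -0.47 on the SJG arrays and 0.83, 1.16 and -0.41 on the diabetic arrays. All SJG values lay below all diabetic values, although SJG replicate 3 and diabetic replicate 3 were only narrowly apart, and the means differed by -1.34. Birc3 minus Xiap averaged -2.52 ± 0.40 with SJG and -0.85 ± 0.76 in the diabetic kidneys, and Apaf1 minus Casp9 averaged -1.07 ± 0.14 with SJG and -0.42 ± 0.65 in the diabetic kidneys (SD, n = 3 each). These means differed by -1.67 and -0.64, also without overlap. For each of the 3 pairs the two-sided exact permutation test gave p = 0.10 (0.133 adjusted over the 4 pairs), the smallest p that 3 arrays against 3 allow. Each of these pairs holds Apaf1 or Birc3, whose groups did not overlap, so they are not separate from the results of those genes. Diablo minus Xiap averaged -0.31 ± 0.19 with SJG and -0.33 ± 0.35 in the diabetic kidneys (SD, n = 3 each, exact permutation p = 0.90). Without diabetic replicate 2 the difference for Apaf1 minus Casp9 was -0.27, since that array held both the highest Apaf1 and the lowest Casp9 signal.

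Apaf1 and Birc3 varied together across the 6 arrays (Pearson r = 0.979), with diabetic replicates ordered 2, 1 and 3 from high to low for both. The genes most like Apaf1 among all 18166 were Dram1, an autophagy gene induced by p53 (r = 0.991), Asb3 (r = 0.988) and the transcription factor gene Jun (r = 0.982). Those most like Birc3 were Pdlim1 (r = 0.996), the tumour necrosis factor receptor gene Tnfrsf1b (r = 0.995) and the matrix proteoglycan gene Bgn (r = 0.992). The log2 fold changes of these genes lay between -1.04 for Bgn and -0.31 for Dram1. The correlations are over 6 arrays that share the split into groups and are given as a description.

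Markers of other cells and of tissue state were read on the same arrays, on which 2.12% of all genes were lower and 0.991% higher. Of 10 macrophage markers, 8 were lower with SJG and none was higher, with a median log2 fold change of -0.85, with the smallest p for the lysozyme gene Lyz2 and the integrin gene Itgam. Their mean log2 signal per array ran from 5.75 to 5.95 with SJG and from 5.99 to 7.23 in the diabetic kidneys, with diabetic replicate 2 highest and diabetic replicate 3 just above the SJG arrays. The count was 3 of 10 without SJG replicate 2, 4 without diabetic replicate 2, 5 without SJG replicate 1 or diabetic replicate 1, and 1 with the unmoderated comparison. The 5 genes of tubule injury, of which 4 were lower, had array means of 6.85 to 7.99 with SJG and 8.11 to 10.13 in the diabetic kidneys. The 7 immediate early genes, which respond quickly to stress, were listed as a reading of tissue handling. They had array means of 6.48 to 7.02 with SJG and 6.91 to 9.01 in the diabetic kidneys. Of the 7, 4 were lower, 1 of them also without diabetic replicate 2. Lymphocyte markers overlapped between the groups, at 4.69 to 4.92 with SJG and 4.53 to 5.50 in the diabetic kidneys, with a median log2 fold change of -0.20. Of the 8 markers 1 was lower, Cd4, and the other 7 did not pass. The count was 3 without diabetic replicate 3 and 0 with the unmoderated comparison. Whether the Cd4 signal came from lymphocytes or from other cells was not tested. The endothelial list had 0 of 3 past the thresholds, at 7.91 to 8.03 with SJG and 8.05 to 8.47 in the diabetic kidneys. Vcam1 stands on both the injury and the NF-kB lists, and Jun is an immediate early gene. The part of these cell and tissue markers in the lower Apaf1 and Birc3 signals was not tested. Of 4 red cell genes 3 were higher, with array means of 7.06 to 7.72 with SJG and 6.09 to 6.90 in the diabetic kidneys, and of 6 adipocyte genes 1 was higher, Adipoq, with array means of 5.79 to 7.24 with SJG and 5.58 to 5.73 in the diabetic kidneys. Without SJG replicate 2 or diabetic replicate 1 these counts were 1 red cell gene and 0 adipocyte genes, and without SJG replicate 1 or SJG replicate 3 the adipocyte count was 2 or 4. With the unmoderated comparison 1 injury gene was lower, and 0 immediate early, red cell or adipocyte genes passed. Proximal tubule markers were high in both groups at 10.83 to 11.21 with SJG and 10.77 to 11.05 in the diabetic kidneys, with 0 of 5 past the thresholds. Of 6 markers of podocytes and later nephron segments 0 passed, with array means of 9.67 to 9.95 with SJG and 9.37 to 9.71 in the diabetic kidneys.

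**Figure D4:**
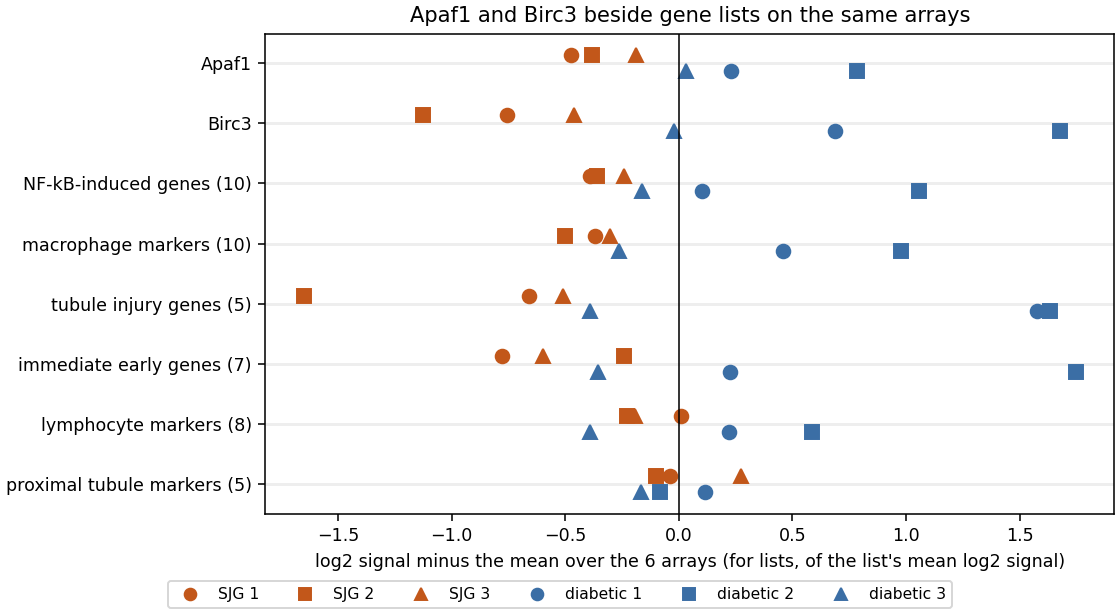
Log2 signal of Apaf1 and Birc3, and mean log2 signal of 6 gene lists, on each array relative to the mean over the 6 arrays. Diabetic replicate 2 is highest for Apaf1, Birc3 and the NF-kB-induced, macrophage, injury, immediate early and lymphocyte lists, and diabetic replicate 3 is the diabetic array nearest to the SJG arrays in the first 6 rows.

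Most other genes around the apoptosome did not pass the thresholds. Of 5 other caspase genes measured, 1 was lower and the median log2 fold change was -0.56. The lower gene was Casp12, a caspase of the inflammatory group known from rodents. Its log2 signal was 5.10, 4.82 and 5.36 with SJG, against 5.998, 7.57 and 5.31 in the diabetic kidneys, so that the groups overlapped at diabetic replicate 3. Casp12 differed by -1.20 on the log2 scale with an interval of -2.18 to -0.22 (limma adjusted p = 0.758), and it no longer passed without diabetic replicate 2, without SJG replicate 2 or with the unmoderated comparison. Without diabetic replicate 3 the list held 3 lower genes, Casp1, Casp4 and Casp12. Of 7 regulators of the apoptosome, none passed, with a median of 0.09 and Ptma, whose product prothymosin alpha restrains apoptosome formation, at the smallest p (-0.40, limma adjusted p = 0.772). Of 7 genes of cytochrome c maturation and the mitochondrial intermembrane space, none passed, and all lay between -0.16 and 0.22. Aifm1, which encodes apoptosis-inducing factor, had the smallest p among them (0.22, limma adjusted p = 0.841).

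On the side of the death receptors, none of 10 genes that activate or restrain caspase-8 passed, with a median log2 fold change of -0.15. The death receptor gene Fas had the smallest p, with log2 signals of 4.18, 4.06 and 4.403 with SJG and 4.54, 5.04 and 4.69 in the diabetic kidneys. These groups did not overlap, but the log2 fold change of Fas of -0.54 was below 1.5-fold (limma adjusted p = 0.752). Fas was lower in the fits without SJG replicate 3 or without diabetic replicate 1, where it exceeded 1.5-fold, and without diabetic replicate 3 the 1 lower gene of this list was Tnfsf10, which encodes the death ligand TRAIL. Of 15 genes whose products caspases cleave or that carry out the demolition of the cell, 1 was lower, with a list median of -0.12. It was Vim, which encodes the intermediate filament of mesenchymal cells, with a 95% interval of -1.77 to -0.22 for its log2 fold change (limma adjusted p = 0.752). Vim had log2 signals of 8.93, 8.86 and 8.91 with SJG and 9.97, 10.77 and 8.96 in the diabetic kidneys, without overlap though diabetic replicate 3 lay close to the SJG arrays. It did not pass without diabetic replicate 1 or 2 or with the unmoderated comparison.

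Among the further IAP genes, the IAP antagonists and the partners of the cIAPs, none passed. Birc6, the only further IAP gene measured of 4 listed, had a log2 fold change of -0.03 (interval -0.41 to 0.34). Of 3 genes that antagonise IAPs, Septin4 had the smallest p (-0.36, limma adjusted p = 0.780), and of 6 partners of the cIAPs in NF-kB signalling, Traf2, the adaptor that carries them to the receptor, did (0.24, limma adjusted p = 0.805). Of 10 genes that NF-kB is known to induce, the group to which Birc3 also belongs, 4 were lower, against 2.12% of all genes. The list's median was -0.65, with 9 of the 10 below 0. The 4 were Icam1, which encodes an adhesion molecule for leukocytes (-1.02), the chemokine gene Ccl2 (-1.38), Bcl3 (-0.66) and Nfkbia (-0.81), whose product holds NF-kB in the cytoplasm. The groups did not overlap for these 4 of the 10 genes, and for 10.5% of all genes. The limma adjusted p of the 4 ranged from 0.713 to 0.765. The list's mean log2 signal was 5.79, 5.82 and 5.94 with SJG and 6.28, 7.24 and 6.02 in the diabetic kidneys. Diabetic replicate 2 stood highest and diabetic replicate 3 lay nearest to the SJG arrays, as for Birc3. The same held for Apaf1 and for the macrophage, tubule injury and immediate early lists. The part of NF-kB in the lower Birc3 signal was not tested. Without SJG replicate 2, 2 of the 10 were lower, and with the unmoderated comparison 1 was, Icam1. Without diabetic replicate 2, 3 were lower and the list's median was -0.255. Without diabetic replicate 3, 6 were lower and the median was -0.902.

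**Figure D5:**
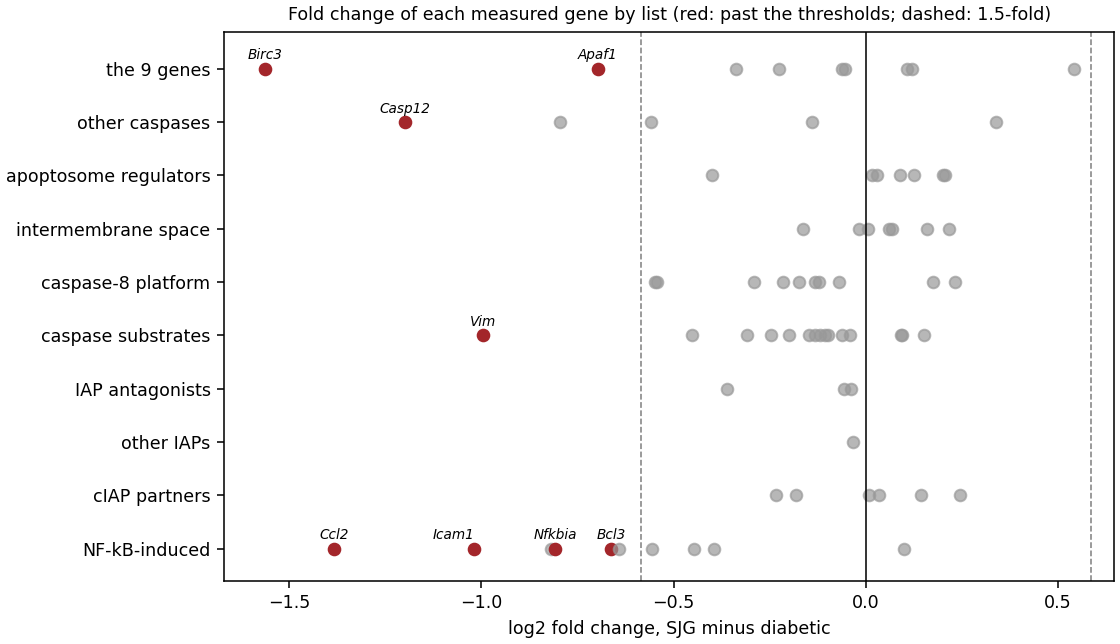
Log2 fold change, SJG minus diabetic, of every measured gene in the 9 genes and in 9 lists of related genes, with genes past the thresholds in red and dashed lines at a 1.5-fold change. Of the related genes, Casp12, Vim and 4 of the NF-kB-induced genes are past the thresholds, all lower with SJG.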

How the data were processed

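Kidney RNA was hybridised to Affymetrix arrays of the type Rat Gene 2.0 ST, 3 from SJG-treated and 3 from diabetic rats. The authors deposited 1 log-scale value for each of 36685 transcript clusters, taken here as log2 because the highest is 13.7. The steps from scan to value (background, normalization, summarisation, software) are not stated by the labels, the file or the paper. These values were used as they stand. Array medians were 4.68 to 4.88 with SJG and 4.70 to 4.85 in the diabetic group. No detection call is given, so the number of arrays limits the precision and the background of dim genes is unknown.

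Transcript clusters were named through the platform annotation, with symbols updated by gene number against RefSeq's GRCr8 table. Of these, 18511 had 1 gene, 575 had several and 17599 had none. The brightest cluster stood for each of the 18166 genes. No array coordinates were used.

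Groups were compared with limma 3.58.1 in R 4.3.3 (lmFit and eBayes, SJG minus diabetic, no replicate block), and genes passed at the study's limits, more than 1.5-fold with p below 0.05 before adjustment. The paper ties no test to its arrays, and its general statement on statistics names an analysis of variance with Tukey's post hoc test, which was not used here. The code was tested on simulated data. Differences within arrays were tested by exact permutation (scipy 1.17.1). The 9 genes, the lists and the comparisons were chosen with earlier results of these data known. Named in the text are all 9 genes, up to 6 genes per pathway list past the thresholds or the 1 with the smallest p, the 3 genes most like each of the 9 that passed, and up to 2 per marker list. Casp1, Casp4 and Tnfsf10 were named after their values were seen. Alternatives were quantile normalization, median centring, genes above the median signal, the mean of clusters, unmoderated tests, a variance trend, the replicate block, leaving out each array and a limit of 1.2-fold. Centring on the named genes and list counts without single arrays were chosen after seeing the data. The titles also carry bracketed codes that the sources do not explain, and their number splits the samples exactly as the treatment does, so that its meaning and the treatment cannot be told apart.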

Additional observations from a re-analysis of the deposited data

How the results depend on the processing

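With all 6 arrays 2 of the 9 genes and 565 of all genes passed. Among genes above the median signal these counts were 1 and 326, because Apaf1 lay below that signal and was not tested. The unmoderated comparison passed 153 of all genes, 77 lower and 76 higher, and kept Apaf1 and Birc3. A fold change of 1.2 passed 1133, which is every gene with a limma p, before adjustment, under 0.05. Centring on the median of the named genes gave 319 lower and 264 higher, against 385 lower and 180 higher, and 3 of the 9 genes, with Cycs added. Leaving out each array gave 1 (without diabetic replicate 2) to 3 (without diabetic replicate 3) of the 9 genes and 403 (without diabetic replicate 2) to 1449 (without diabetic replicate 3) of all genes, with 982 without SJG replicate 1. With the replicate block 2 of the 9 and 634 genes passed, and the block changed no call among the 9 genes. Deviations from the group means correlated at -0.04, -0.24 and -0.09 in the same-numbered pairs. These values show no sign of pairing by number, but 3 arrays per group cannot exclude it. The within-array differences ranged over the left-out arrays from -0.85 to -0.27 for Apaf1 minus Casp9, from -1.81 to -1.02 for Birc3 minus Birc2, from -2.09 to -1.36 for Birc3 minus Xiap and from -0.15 to 0.20 for Diablo minus Xiap. Small values turned sign under quantile normalization for Casp9 (0.001) and Casp6 (0.004), without SJG replicate 2 for Diablo (-0.008), and without diabetic replicate 1 for Casp9 (0.088), Diablo (-0.05) and Xiap (-0.047). Over all left-out arrays these differences ranged from -0.207 to 0.088 for Casp9, from -0.05 to 0.318 for Diablo and from -0.047 to 0.24 for Xiap. The cause of these changes was not tested.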
